A study of Homo sapiens with 12 samples.

Results

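Antisense long non-coding RNA genes are named for the gene they lie against: PRR7-AS1, for example, is transcribed from the strand opposite to PRR7. They were chosen here by symbol alone, as every gene whose symbol ends in -AS and a number, and each was read through its brightest probe set. The rule found 475 antisense genes among 14580 genes, and 469 of the 475 are classed as long non-coding RNA by RefSeq. The gene named before -AS, called the sense partner below, was also measured for 306 of them, which is 294 distinct partners. The partners of the other 169 were not analysed here.

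Antisense transcripts often start near the promoter of the sense gene or inside its body. Individual ones are known to act on chromatin, to compete with transcription of the sense gene or to pair with its RNA, and many have no known role. Their levels are usually low, and their transcription depends on the promoter and histone acetylation state of the locus, as that of coding genes does.

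RNA of A2058, an established human melanoma line, was hybridised to Affymetrix arrays after 24 h of treatment. All cells were of this 1 line, and the 12 arrays formed 4 groups of 3. DMSO was the vehicle control, DT was dabrafenib at 100 nM with trametinib at 10 nM, E was entinostat at 1 µM, and DTE was all 3 agents at those doses. Dabrafenib inhibits RAF kinases, trametinib inhibits MEK, the kinase that activates ERK, and entinostat inhibits class I histone deacetylases. The sample titles speak of biological replicates and the series design of technical ones, so the p-values here describe how far these arrays scatter, and that scatter may be technical only.

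Of 8 melanocytic marker genes, 7 were measured, and all lay above the lower quartile of genes in DMSO. The 6 ERK output genes checked fell by 3.24 to 4.47 (log2) in DT and fell in DTE as well. The summed log2 level of the 7 melanocytic markers was 51.0 to 51.8 on the DMSO arrays and 57.7 to 59.2 on the DT arrays, and 4 of them rose in DT. It was 49.2 to 49.9 in E, where MITF, TYR and MLANA fell and 0 rose, and 52.5 to 53.8 in DTE, where 3 rose and 1 fell. Of 5 fibroblast markers 3 were measured. Their summed level was 13.9 to 14.4 in DMSO and 15.99 to 16.5 in E. All 3 rose in E, but DCN lay below the lower quartile in all 4 groups. In DTE 2 of them rose, LUM by 1.63, and in DT 0 were called. Of 5 epithelial markers measured 2 rose in E, with summed levels of 18.5 to 20.6 in DMSO and 20.7 to 22.0 in E. EPCAM, 1 of the 2, lay below the lower quartile in DMSO. KRT18, the other, fell by 1.07 in DT and by 0.47 in DTE, where EPCAM rose. These rises and falls are those of the deposited values. The 1 blood marker measured lay below the lower quartile in DMSO. The part of these shifts in the antisense results was not tested.

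The promoters of 4 antisense genes on which the results turn are shown because these genes gave the largest fall, a fall to the dim range with entinostat, the largest rise with the 3 agents, and the largest negative departure from additive effects. Each is the RefSeq window of 250 bases before to 50 bases after the annotated start (GRCh38.p14), written 5′ to 3′ on the strand of the antisense gene. PRR7-AS1 lies at chr5:177447895-177448194 on the minus strand, SPART-AS1 at chr13:36346181-36346480 on the plus strand, POPDC1-AS1 at chr6:105137437-105137736 on the plus strand, and TMEM51-AS1 at chr1:15152415-15152714 on the minus strand. Capitals mark matches on either strand to TGANTCA, where N is any base. This pattern takes in the site of AP-1 and is wider than that site. AP-1 is the FOS and JUN dimer whose genes respond to ERK signalling.
PRR7-AS1: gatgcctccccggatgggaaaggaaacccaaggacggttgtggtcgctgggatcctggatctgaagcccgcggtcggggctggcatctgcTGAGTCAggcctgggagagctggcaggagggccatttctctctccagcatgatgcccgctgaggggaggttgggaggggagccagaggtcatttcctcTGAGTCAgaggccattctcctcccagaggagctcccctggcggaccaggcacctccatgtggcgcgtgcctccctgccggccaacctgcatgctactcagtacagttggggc
SPART-AS1: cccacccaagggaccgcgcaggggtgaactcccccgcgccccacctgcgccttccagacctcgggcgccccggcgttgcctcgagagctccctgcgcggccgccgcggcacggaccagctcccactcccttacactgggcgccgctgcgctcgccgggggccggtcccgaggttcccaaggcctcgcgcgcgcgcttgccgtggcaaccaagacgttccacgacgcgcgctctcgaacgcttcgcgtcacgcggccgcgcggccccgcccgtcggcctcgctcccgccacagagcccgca
POPDC1-AS1: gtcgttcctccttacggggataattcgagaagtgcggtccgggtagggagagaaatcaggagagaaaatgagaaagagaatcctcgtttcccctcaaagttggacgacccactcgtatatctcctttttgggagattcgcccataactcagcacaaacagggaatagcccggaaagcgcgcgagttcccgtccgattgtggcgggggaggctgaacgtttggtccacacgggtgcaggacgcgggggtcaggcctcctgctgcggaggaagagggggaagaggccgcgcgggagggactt
TMEM51-AS1: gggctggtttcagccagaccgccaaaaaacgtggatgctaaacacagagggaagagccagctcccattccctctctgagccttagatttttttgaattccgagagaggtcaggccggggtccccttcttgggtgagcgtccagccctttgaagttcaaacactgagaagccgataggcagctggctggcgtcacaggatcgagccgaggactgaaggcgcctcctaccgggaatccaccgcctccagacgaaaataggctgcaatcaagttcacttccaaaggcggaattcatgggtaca

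The PRR7-AS1 window held 2 AP-1 matches, and the other windows shown held none. The letters CCGGAAG of an ETS site were searched on both strands and found in none of the windows shown. The same held for the E-box, whose letters are CACGTG, and for the TATA box, searched with the letters TATAAA. No match printed overlaps a match of another motif. The SPART-AS1 window was the richest in CpG, with 49 CpG dinucleotides and 76.7% G or C, and the PRR7-AS1 window had 11. A RefSeq promoter window was found for 364 antisense genes. The AP-1 letters, TGANTCA with any base at N, occurred in 10.2% of them (37 of 364) and in 7.76% of all 27305 promoter windows of the same length. The ETS letters occurred in 8.79% of the antisense and 10.7% of all windows, the E-box in 8.79% and 7.43%, and the TATA box in 9.34% and 11.95%. Of 34 windows of antisense genes called lower in DT, 4 held the AP-1 letters, as did 0 of 9 of those called higher and 33 of 321 of those not called. The median window held 15 CpG dinucleotides for antisense genes and 14 for all promoters. It held 22 for the 82 antisense genes called in any treatment against DMSO and 12 for the other 282. Of all 99 antisense genes so called, 77 lay above the lower quartile of genes in all 4 groups. The part of signal level in the difference between 22 and 12 was not tested. No such split was made for all promoters.

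Many antisense genes were dim. In all 4 groups 199 of the 475 (41.9%) had mean levels below the lower quartile of all genes, a level not shown to be above background, while 233 (49.1%) lay above it in all 4 groups and 43 in some groups. The quartile was at log2 intensities of 2.98 for DMSO, 2.91 for DT, 3.12 for E and 2.99 for DTE. Against DMSO, 99 antisense genes (20.8%) were called in at least 1 treatment, that is, at an adjusted p under 0.05 in the limma fit over all genes, and 46.0% of all genes were. Of the 99, 77 lay above the quartile in every group and 8 below it in every group.

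The direction of small changes depended on how the arrays were scaled. The median log2 change of all genes in the deposited values was -0.17 for DT, 0.07 for E and -0.10 for DTE. Counts are therefore given first for antisense genes called in the same direction on 3 scales: the values as deposited, after quantile normalization and after centring each array on its median. On this basis 71 antisense genes (14.9%) were called in at least 1 treatment against DMSO, and 29.3% of all genes were. Log2 changes are those of the deposited values unless another scale is named.

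**Figure D1:**
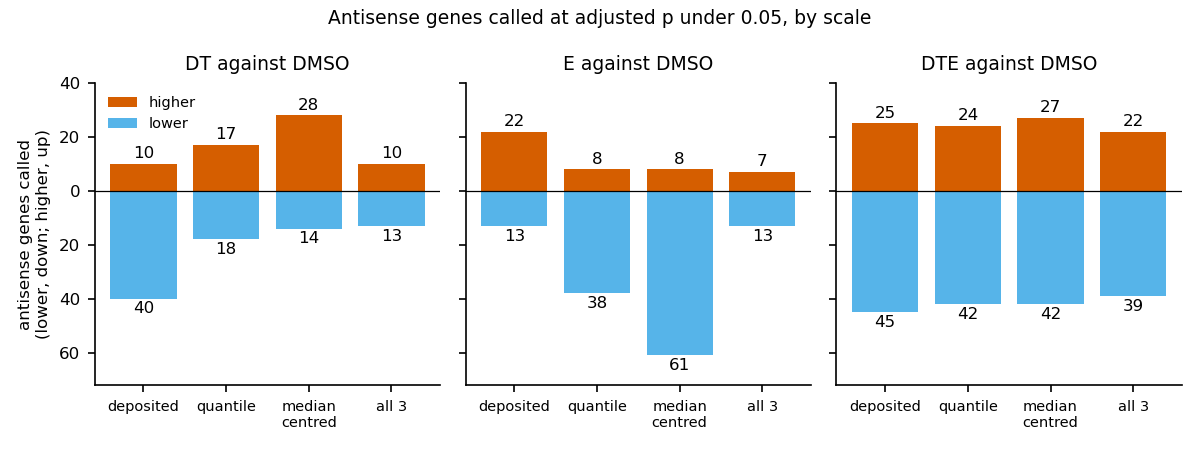
Number of antisense genes (vertical axis) called higher (up) or lower (down) in each treatment against DMSO at an adjusted p under 0.05, on each scale and on all 3 scales together (horizontal axis). The DTE counts vary little with the scale, from 24 to 27 higher and from 42 to 45 lower, whereas the counts in DT and E turn from mostly lower to mostly higher, or the reverse.

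Inhibition of RAF and MEK changed a small number of antisense genes on all scales, and the largest changes were falls. In DT 10 antisense genes rose and 13 fell on all 3 scales (2.11% and 2.74% of the members), where 3.22% of all genes rose and 7.43% fell. As deposited, 10 rose and 40 fell against a background of 3.23% and 24.1% of all genes, with 17 and 18 after quantile normalization (8.55% and 7.86% of all genes) and 28 and 14 after median centring (8.08% and 12%). Called changes of at least 2-fold were a rise in 1 and a fall in 6 (0.211% and 1.26% of the members), with 0.514% and 2.67% of all genes. The falls numbered 3 on either other scale, where 1.28% of all genes fell so after quantile normalization and 1.63% after median centring. The median change of the antisense genes was -0.09, with 0.01 after quantile normalization and 0.11 after median centring. Leaving out 1 array moved the 10 rises to 5 (without DMSO replicate 1), 6 (without DMSO replicate 3) or 6 (without DT replicate 1), both as deposited and on all 3 scales, and the 40 falls to 21 (without DMSO replicate 2) or 23 (without DT replicate 1).

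PRR7-AS1, whose partner PRR7 encodes a transmembrane adaptor protein of T cells and synapses, had the largest fall. Its log2 levels were 7.32, 7.77 and 7.40 in DMSO, 5.17, 5.34 and 5.21 with DT, 5.64, 5.71 and 5.46 with E, and 4.22, 4.56 and 4.36 with DTE. The groups did not overlap, and DTE lay lowest. The fall in DT was 4.78-fold (-2.26, SE 0.14, adjusted p = 9.7e-10). STEAP1B-AS1 fell by 1.52 in DT (SE 0.17, adjusted p = 3.8e-06), from 5.05, 5.01 and 4.43 in DMSO to 3.07, 3.69 and 3.15. The DT and DMSO arrays were well apart. DLGAP1-AS1, named for a scaffold of synapses, was among the brightest antisense genes and fell by 1.33 (SE 0.14, adjusted p = 1.6e-06). Its levels were 7.25, 7.41 and 7.36 in DMSO and 5.93, 6.19 and 5.92 in DT.

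SH3PXD2A-AS1 fell by 1.10 in DT, NHSL1-AS1 by 1.05, VPS9D1-AS1 by 0.95 and ARHGAP5-AS1 by 0.84, each on all 3 scales. SH3PXD2A encodes the scaffold TKS5 of invadopodia, NHSL1 a regulator of actin and VPS9D1 a protein with a VPS9 domain. CPB2-AS1 fell by 1.17 and NALCN-AS1, named for the sodium leak channel, by 0.85, and both ended below the lower quartile in DT, so that their fall is into the dim range. CPB2-AS1 read 3.84, 3.82 and 3.76 in DMSO and 2.67, 2.48 and 2.78 in DT.

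Rises in DT were smaller. HLA-F-AS1, named for a non-classical class I gene of the major histocompatibility complex, was the antisense gene with a rise of at least 2-fold (1.29, SE 0.23, adjusted p = 0.00051). Its levels were 3.29, 4.13 and 3.28 in DMSO and 4.85, 5.24 and 4.47 in DT, which do not overlap although DMSO replicate 2 stood above its group. TFAP2A-AS1, named for a transcription factor of neural crest and melanocytes, rose by 0.71, from 4.72, 4.81 and 4.82 to 5.53, 5.77 and 5.17. POPDC1-AS1 rose by 0.56, ZBED5-AS1 by 0.52 and TENM3-AS1 by 0.47. All of these rises held on all 3 scales.

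Entinostat alone moved few antisense genes on all scales, and the scale decided whether rises or falls were more numerous. The largest falls were those of PRR7-AS1, SPART-AS1 and SLCO4A1-AS1, and the largest rises held on all scales those of POPDC1-AS1 and TMEM51-AS1. On all 3 scales 7 rose and 13 fell (1.47% and 2.74%), with 7.27% and 3.53% of all genes. As deposited 22 rose and 13 fell, with 12.5% and 3.54% of all genes, after quantile normalization 8 and 38 (9.67% and 8.45%), and after median centring 8 and 61 (7.53% and 16.3%). Called changes of at least 2-fold were rises in 3 and falls in 4 (0.632% and 0.842%), with 2.31% and 0.123% of all genes. On either other scale 0 rises and 5 falls reached 2-fold. Of all genes 1.40% rose and 0.185% fell so after quantile normalization, and 1.21% and 0.343% after median centring. The median change was 0.07, with -0.05 after quantile normalization and -0.13 after median centring. Leaving out E replicate 3 left 4 rises on all 3 scales, and leaving out DMSO replicate 3 left 9 rises as deposited. The 13 falls became 7 without DMSO replicate 2 and 8 without E replicate 1, on either basis.

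PRR7-AS1 again had the largest fall (-1.89, SE 0.14, adjusted p = 3.8e-08). SPART-AS1, which lies against the spastic paraplegia gene SPART, fell by 1.36 (SE 0.17, adjusted p = 1.4e-05). It read 3.68, 3.91 and 3.75 in DMSO, 4.39, 4.45 and 4.02 with DT, 2.64, 2.66 and 1.96 with E, and 2.63, 2.62 and 2.59 with DTE. It was measured above the lower quartile on the arrays without entinostat and below it on the 6 arrays with entinostat, so no level above background was shown for it there and the size of its fall is not settled. Its rise in DT (0.51, adjusted p = 0.028) was no longer called without DMSO replicate 1 (0.46), DMSO replicate 3 (0.49), DT replicate 1 (0.46) or DT replicate 2 (0.43). SLCO4A1-AS1, named for an organic anion transporter, fell by 1.15 in E. It read 4.33, 4.10 and 4.52 in DMSO, 4.41, 4.68 and 4.50 with DT, 2.78, 3.40 and 3.31 with E, and 3.23, 3.44 and 3.29 with DTE. The arrays with entinostat were all below those without it. Its E arrays lay close to the lower quartile of E (3.12), with E replicate 1 below it, so the size of its fall in E is not settled. NHSL1-AS1 fell by 1.02, PARD6G-AS1 by 0.88, TMPO-AS1 by 0.71 and TMEM147-AS1 by 0.59.

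The largest rise held on all 3 scales in E was that of POPDC1-AS1, named for a cyclic AMP-binding protein of muscle and epithelial membranes (1.14, SE 0.13, adjusted p = 6e-06). It read 3.49, 3.51 and 3.29 in DMSO, 3.99, 3.82 and 4.17 with DT, 4.62, 4.44 and 4.65 with E, and 4.98, 5.26 and 5.18 with DTE. The 4 groups formed an order without overlap. TMEM51-AS1 rose by 1.01 (SE 0.13, adjusted p = 2e-05). CLDN10-AS1, named for a claudin of tight junctions, rose by 0.92. It lay below the lower quartile in DMSO, DT and DTE and above it in E, at 3.86, 3.47 and 3.58. UPK1A-AS1 rose by 0.83, ARHGEF26-AS1 by 0.82 and MNX1-AS1 by 0.62.

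With the 3 agents together more antisense genes were called, and the direction depended less on scaling. In DTE 22 rose and 39 fell on all 3 scales (4.63% and 8.21%), with 9.45% and 13.6% of all genes. As deposited 25 rose and 45 fell, with 9.64% and 22.5% of all genes, and leaving out DMSO replicate 2 took the 45 falls to 28. After quantile normalization the counts were 24 and 42 (14.2% and 14.2% of all genes), and after median centring 27 and 42 (11% and 23.1%). Called rises of at least 2-fold numbered 2 and falls 8 on each scale (0.421% and 1.68%), with 2.24% and 1.92% of all genes as deposited. The shares of all genes were 2.95% and 1.02% after quantile normalization, and 2.43% and 1.73% after median centring. The median change of the antisense genes was -0.04. PRR7-AS1 fell 8.67-fold (-3.12, SE 0.14, adjusted p = 1.6e-11), SH3PXD2A-AS1 by 1.47, NHSL1-AS1 by 1.26, DLGAP1-AS1 by 1.22, PARD6G-AS1 by 1.21, SPART-AS1 by 1.17, STEAP1B-AS1 by 1.16 and TMPO-AS1 by 1.14. POPDC1-AS1 rose 3.27-fold (1.71, SE 0.13, adjusted p = 2e-08) and HLA-F-AS1 by 1.19. ZBED5-AS1 rose by 0.89, FOXN3-AS1 by 0.74, UPK1A-AS1 by 0.70, CCDC18-AS1 by 0.67 and ERCC6L2-AS1 by 0.64. These changes in DTE were called on all 3 scales.

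**Figure D2:**
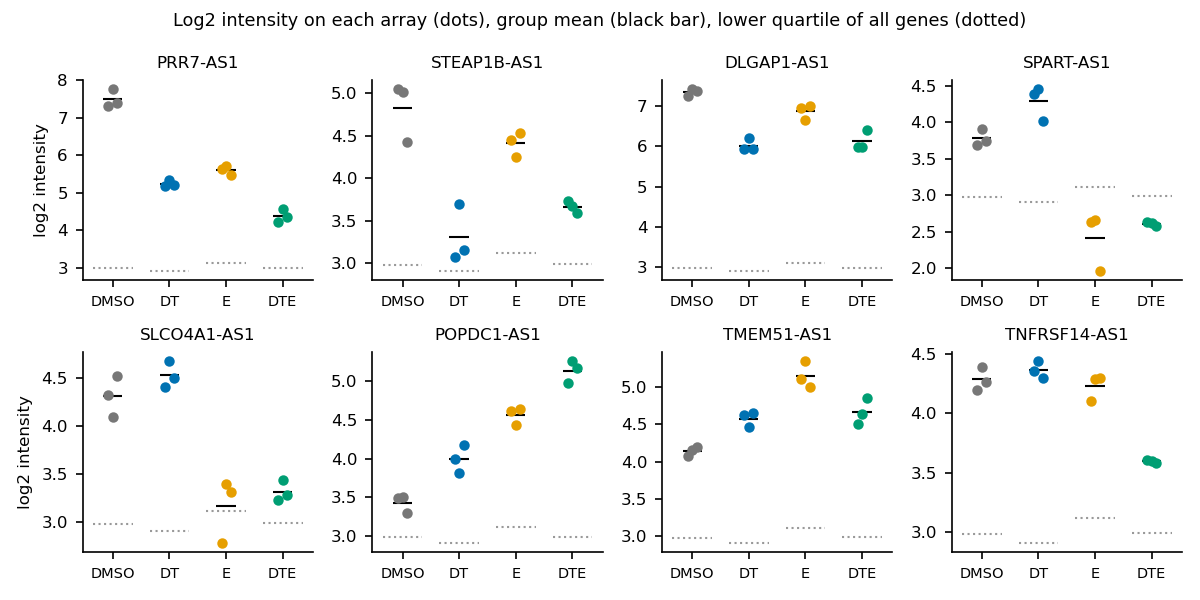
Log2 intensity (vertical axis) of 8 antisense genes on each of the 12 arrays by group (horizontal axis), with the group mean as a black bar and the lower quartile of all genes as a dotted line. PRR7-AS1 falls in every treatment, SPART-AS1 drops below the quartile on the 6 arrays with entinostat, POPDC1-AS1 rises from group to group, and TNFRSF14-AS1 is low in DTE alone, at 3.59 to 3.61.

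Among the 99 antisense genes called against DMSO, 53 were called in 1 treatment, 36 in 2 and 10 in all 3. The matching split of all genes is not given, so these numbers are not read as many or few. The antisense genes called lower in all 3 were PRR7-AS1, NHSL1-AS1, DLGAP1-AS1, SH3PXD2A-AS1, TMPO-AS1 and PARD6G-AS1. Those called higher in all 3 were POPDC1-AS1, TMEM51-AS1 and HLA-F-AS1, and SPART-AS1 was called in both directions. The calls of PRR7-AS1, NHSL1-AS1 and POPDC1-AS1 held on every scale and with any 1 array left out. The comparisons with DMSO share the same 3 control arrays. In DT the calls of TMPO-AS1 (-0.45) and PARD6G-AS1 (-0.66) were lost on both other scales, that of TMPO-AS1 also without DT replicate 3 (-0.36), and that of PARD6G-AS1 without DMSO replicate 2 (-0.58) or DT replicate 1 (-0.58). The call of TMEM51-AS1 in DT (0.44) was lost without DMSO replicate 1 (0.41), DT replicate 1 (0.42) or DT replicate 3 (0.40). In E the call of DLGAP1-AS1 (-0.48) was lost without DMSO replicate 2 (-0.44), DMSO replicate 3 (-0.47) or E replicate 2 (-0.36). In E the calls of SH3PXD2A-AS1 (-0.57) and HLA-F-AS1 (0.71) were each lost in 7 of the 12 analyses with 1 array left out. For SH3PXD2A-AS1 these left out any DMSO or E replicate or DT replicate 3 (-0.64 to -0.47), and for HLA-F-AS1 any E replicate, DMSO replicate 1 or 3, DT replicate 1 or DTE replicate 2 (0.53 to 0.82). HLA-F-AS1 also lost its call in E on both other scales.

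The 4 groups allow the effect of each treatment to be read in cells that did or did not receive the other, from separate arrays. For entinostat, E against DMSO was set beside DTE against DT. In DTE against DT 12 antisense genes rose and 17 fell on all 3 scales (2.53% and 3.58%), with 9.36% and 5.09% of all genes. As deposited 23 rose and 17 fell, with 13.8% and 5.09% of all genes. After quantile normalization the counts were 17 and 45 (12.2% and 12% of all genes), and after median centring 12 and 52 (9.36% and 15.4%). Leaving out DT replicate 2 left 7 rises on all 3 scales, leaving out DT replicate 1 or 3 left 14 or 15 as deposited, and leaving out DTE replicate 2 left 9 falls on either basis.

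Across the 475 antisense genes the log2 changes with entinostat in the 2 settings had a Pearson correlation of 0.58 (Spearman 0.40). The points share arrays within a setting and many are dim. Antisense genes called in both settings as deposited were higher in 7 and lower in 9 (1.47% and 1.89%), with 8.04% and 1.82% of all genes. They were 3 and 22 after quantile normalization and 4 and 31 after median centring, and on each scale 0 were called in opposite directions. Shares of all genes called in both settings are given as deposited only. The 9 called lower in both were PRR7-AS1, SPART-AS1, SLCO4A1-AS1, PARD6G-AS1, TMPO-AS1, FBXL19-AS1, LBX2-AS1, PPP1R26-AS1 and PRRT3-AS1, and all 9 were so called on all 3 scales. PRR7-AS1, SPART-AS1, SLCO4A1-AS1 and TMPO-AS1 kept both calls with any 1 array left out. PARD6G-AS1 lost its call in DTE against DT without DT replicate 2 or any DTE replicate (-0.61 to -0.40), and PRRT3-AS1 without DT replicate 1 or 2 or DTE replicate 2 (-0.40 to -0.29). FBXL19-AS1 lost the call in E without DMSO replicate 2 or E replicate 1 or 2 (-0.59 to -0.44), and in DTE against DT without DT replicate 1 or any DTE replicate (-0.63 to -0.35). LBX2-AS1 lost the call in E in 9 of the 12 analyses, all but those without E replicate 3 or DTE replicate 2 or 3 (-0.52 to -0.34). PPP1R26-AS1 lost it in E without any DMSO or E replicate (-0.49 to -0.41), and in DTE against DT without DMSO replicate 1, DT replicate 2 or 3, E replicate 3 or DTE replicate 2 or 3 (-0.43 to -0.30). POPDC1-AS1, ARHGAP5-AS1 and UPK1A-AS1 were higher in both on all 3 scales. The rise of POPDC1-AS1 was 1.14 in either setting, the fall of SLCO4A1-AS1 was 1.15 without and 1.21 with DT, and that of TMPO-AS1 0.71 and 0.69. For ARHGAP5-AS1 the rise was 0.52 without and 1.02 with DT, on levels of 6.94, 7.10 and 6.88 in DMSO, 6.01, 6.16 and 6.24 with DT, 7.50, 7.46 and 7.52 with E, and 6.99, 7.12 and 7.35 with DTE. Its DTE arrays reached the range of the DMSO arrays.

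For dabrafenib with trametinib, DT against DMSO was set beside DTE against E. In DTE against E 4 antisense genes rose and 9 fell on all 3 scales (0.84% and 1.89%), with 2.04% and 5.53% of all genes. As deposited 4 rose and 45 fell, with 2.08% and 22.4% of all genes, after quantile normalization 14 and 12 (6.99% and 5.84%), and after median centring 29 and 9 (6.71% and 6.91%). The 9 falls on all 3 scales became 5 without E replicate 1, 3 without E replicate 3 and 4 without DTE replicate 2, and the 45 falls 27 without E replicate 2, 29 without E replicate 3 and 22 without DTE replicate 1. The changes in the 2 settings had a Pearson correlation of 0.54 (Spearman 0.40) across the 475 antisense genes. As deposited 2 were called higher in both and 17 lower, with 1.13% and 13.4% of all genes. The counts were 6 and 6 after quantile normalization and 9 and 5 after median centring, where shares of all genes are not given. Lower in both on all 3 scales were PRR7-AS1 (-2.26 without and -1.22 with entinostat), STEAP1B-AS1 (-1.52 and -0.74), DLGAP1-AS1 (-1.33 and -0.74), SH3PXD2A-AS1 (-1.10 and -0.91) and VPS9D1-AS1 (-0.95 and -0.79). Higher in both were POPDC1-AS1 (0.56 and 0.57) and ZBED5-AS1 (0.52 and 0.84). The 1 antisense gene called in opposite directions was TMEM51-AS1 (0.44 and -0.48). Its call in DTE against E was lost on both other scales (-0.27 and -0.26) and without E replicate 2 (-0.39) or DTE replicate 1 (-0.40), and its call in DT without DMSO replicate 1 (0.41), DT replicate 1 (0.42) or DT replicate 3 (0.40).

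**Figure D3:**
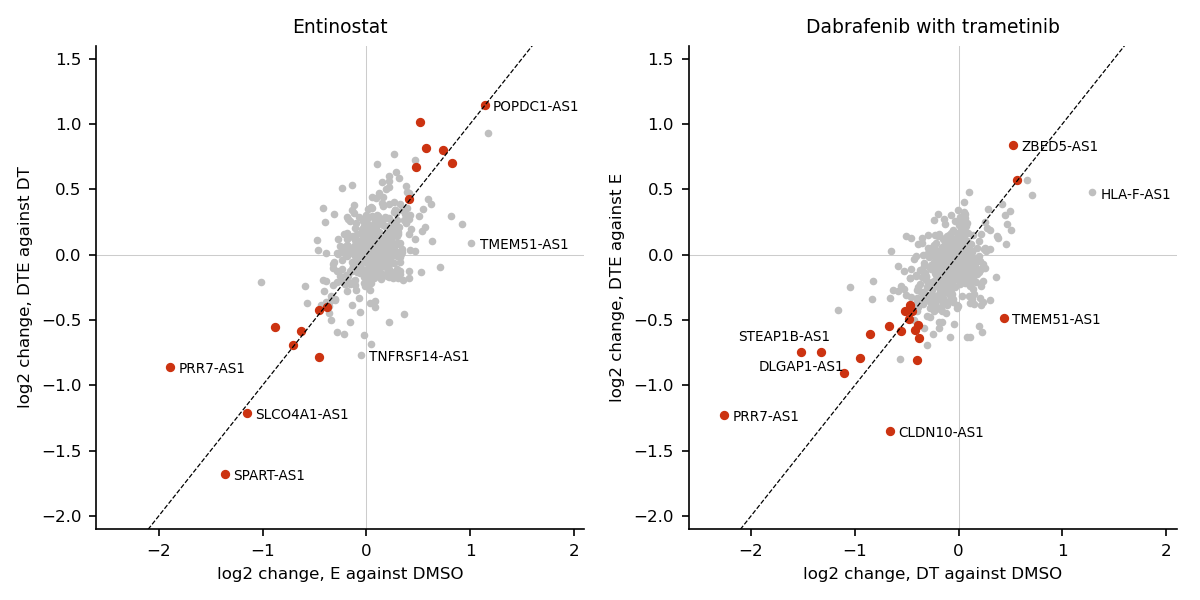
Log2 change of the 475 antisense genes with entinostat (left) and with dabrafenib and trametinib (right), in cells without the other treatment (horizontal axis) and with it (vertical axis); red points were called in both as deposited, and the dashed line marks equal changes. POPDC1-AS1 lies on the line in the left panel and PRR7-AS1 off it in both.

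Departure from additivity, the effect of entinostat with DT minus its effect without DT on the log2 scale, was called for 1 antisense gene with a positive and 2 with a negative value, both as deposited and on all 3 scales. Of all genes 0.562% were called positive and 0.473% negative as deposited, and 0.549% and 0.439% on all 3 scales. After quantile normalization 2 antisense genes were positive and 2 negative (1.19% and 0.96% of all genes), and after median centring 2 and 2 (1.1% and 0.734%). PRR7-AS1 departed by 1.03 (SE 0.19, adjusted p = 0.011): its fall with entinostat was 1.89 in cells without DT and 0.86 in cells with DT. TMEM51-AS1 departed by -0.92 (SE 0.18, adjusted p = 0.015). As deposited it kept this call with any 1 array left out, but without DMSO replicate 1, DT replicate 1, DT replicate 3 or DTE replicate 2 the antisense genes called negative on all 3 scales numbered 0. It read 4.07, 4.15 and 4.19 in DMSO, 4.62, 4.46 and 4.64 with DT, 5.10, 5.34 and 4.996 with E, and 4.50, 4.64 and 4.85 with DTE. Its DTE arrays overlapped the DT arrays and lay below the E arrays. The sense partner TMEM51 departed by -0.77, not called as deposited (adjusted p = 0.099). It was called after quantile normalization (-0.80, adjusted p = 0.023) but not after median centring (-0.74, adjusted p = 0.0502). TNFRSF14-AS1, named for a receptor of the tumour necrosis factor family, departed by -0.71 (SE 0.16, adjusted p = 0.037). It read 4.20, 4.39 and 4.27 in DMSO, 4.36, 4.44 and 4.30 with DT, 4.10, 4.29 and 4.30 with E, and 3.61, 3.60 and 3.59 with DTE. It was lower in DTE than on any other array, and its departure kept the call without DMSO replicate 2 or E replicate 1 and lost it without any 1 of the other 10 arrays (-0.74 to -0.67). NHSL1-AS1 had a departure of 0.80 that was not called as deposited (adjusted p = 0.055) and was called on both other scales.

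Each antisense gene with a measured partner was then set beside it. Among the 306 pairs the partner was called far more often than the antisense gene. In DT both were called in the same direction in 17 pairs, in opposite directions in 1, the antisense gene alone in 14 and the partner alone in 99. In E these numbers were 4, 2, 17 and 63, and in DTE 19, 7, 20 and 102. After quantile normalization the pairs called in the same direction in DT numbered 6, and after median centring 11. In E these were 5 and 10, with 3 opposite on either scale. In DTE they were 15 and 19, with 3 and 7 opposite. Of the 294 partners 38.4% were called in DT, 21.4% in E and 41.2% in DTE as deposited. Of all genes 27.3%, 16.1% and 32.2% were called, and of the 475 antisense genes 10.5%, 7.37% and 14.7%.

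The Pearson correlation between the changes of the antisense gene and its partner across the 306 pairs was 0.23 in DT, 0.11 in E and 0.25 in DTE. It is a description over loci that share the same arrays. By position of the RefSeq starts, 35 pairs had the antisense start within 1000 bases downstream of the sense start, on the opposite strand, and there the correlation was 0.47 in DT, 0.49 in E and 0.56 in DTE. For 28 pairs with the antisense start within 1000 bases upstream it was 0.32, 0.44 and 0.43, and for 140 pairs with the antisense start further downstream it was 0.20, 0.06 and 0.27. Whether the classes differ was not tested.

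**Figure D4:**
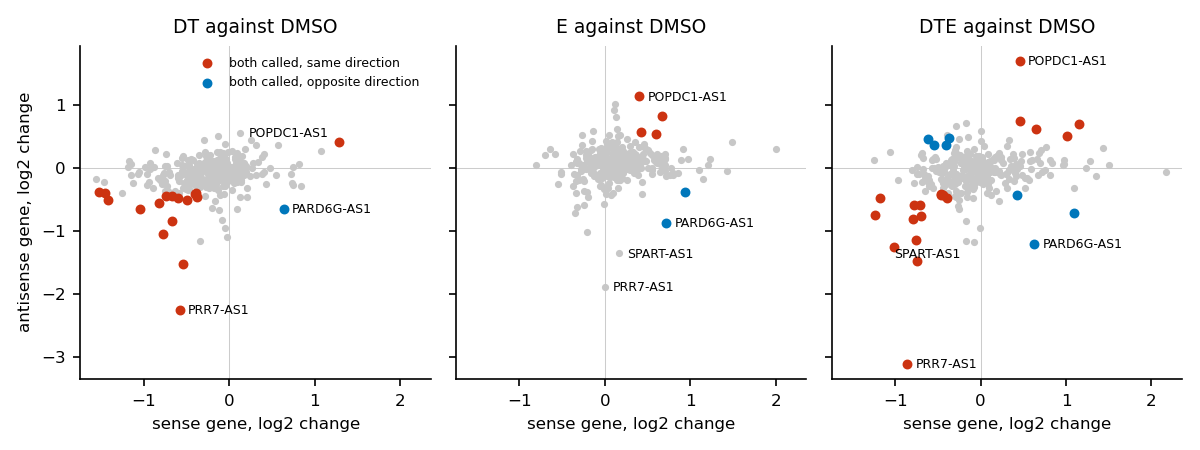
Log2 change of 306 antisense genes (vertical axis) against that of their sense partners (horizontal axis) in DT, E and DTE against DMSO, with pairs called in the same direction in red and in opposite directions in blue. PRR7-AS1 lies near 0 on the horizontal axis in E, where its own change is -1.89.

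PRR7-AS1 in E, and SPART-AS1 in each treatment, changed where the partner did not pass the test. PRR7 read 6.10, 6.16 and 5.85 in DMSO, 5.40, 5.58 and 5.39 with DT, 5.99, 6.19 and 5.93 with E, and 5.18, 5.14 and 5.23 with DTE. The E and DMSO arrays of PRR7 overlapped, with a change of -0.00 (SE 0.12), while PRR7-AS1 fell by 1.89. PRR7 fell by 0.58 in DT, a call lost after quantile normalization (-0.28), and by 0.86 in DTE. Their starts lie 1130 bases apart, with that of PRR7-AS1 downstream. SPART was not called in any treatment: its changes were -0.13 in DT, 0.16 in E and -0.08 in DTE, each with an SE of 0.13. SPART-AS1 starts 23749 bases downstream of the SPART start. POPDC1-AS1 starts 530 bases upstream of POPDC1, and POPDC1 changed by 0.13 in DT, not called as deposited but called higher after quantile normalization (0.49, adjusted p = 0.0022) and median centring (0.33, adjusted p = 0.037). It rose by 0.40 in E and by 0.46 in DTE. The rise in E was lost without DMSO replicate 1 or 3, DT replicate 1, any E replicate or DTE replicate 2 (0.34 to 0.44) and that in DTE without DMSO replicate 1 or 3 or DTE replicate 3 (0.37 to 0.42), and the rise in E also after median centring (0.20). For TMPO-AS1, which starts 653 bases downstream of TMPO, the gene of lamina-associated polypeptide 2, the partner fell by 0.76 in DTE and TMPO-AS1 by 1.14. Other partners also moved with their antisense genes. In DTE NHSL1 fell by 1.01 and SH3PXD2A by 0.75, and UPK1A rose by 1.15, each on all 3 scales. In DT EPHA5 rose by 1.28 on all 3 scales, and EPHA5-AS1 was called higher as deposited.

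Opposite directions were seen most clearly for PARD6G-AS1 and PRRT3-AS1. PARD6G, which encodes a cell polarity protein, read 4.20, 4.33 and 4.10 in DMSO, 4.74, 5.05 and 4.76 with DT, 4.87, 5.03 and 4.89 with E, and 4.85, 4.91 and 4.75 with DTE. PARD6G-AS1 read 5.62, 5.70 and 5.30 in DMSO, 4.72, 5.19 and 4.73 with DT, 4.93, 4.21 and 4.84 with E, and 4.28, 4.44 and 4.26 with DTE. In every treatment the partner lay above its DMSO arrays and the antisense gene below. The partner rose by 0.72 and PARD6G-AS1 fell by 0.88 in E, and by 0.62 and 1.21 in DTE, calls that held on both other scales.

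PRRT3-AS1 was among the brightest antisense genes and starts 5004 bases downstream of PRRT3. In DTE it fell by 0.72 while PRRT3 rose by 1.09, and in DTE against DT it fell by 0.40 while PRRT3 rose by 0.88. In E it fell by 0.38 (adjusted p = 0.035) while PRRT3 rose by 0.94, but its call in E was lost without any 1 of the DMSO or E replicates (-0.41 to -0.34), and that in DTE against DT without DT replicate 1 or 2 or DTE replicate 2 (-0.40 to -0.29). DSG2-AS1 fell by 0.42 and DSG2, a desmosomal cadherin, rose by 0.43 in DTE, and both calls held on all scales. The call of DSG2-AS1 was lost without any 1 of the DMSO replicates or without DTE replicate 1 or 2 (-0.45 to -0.37), and that of DSG2 without DMSO replicate 3 (0.37) or DTE replicate 3 (0.29). The other opposite pairs in DTE were CBR3-AS1, SERTAD4-AS1, UGDH-AS1 and TMEM44-AS1, with rises of 0.46, 0.37, 0.36 and 0.48, and in each the opposite call was lost after quantile normalization.

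**Figure D5:**
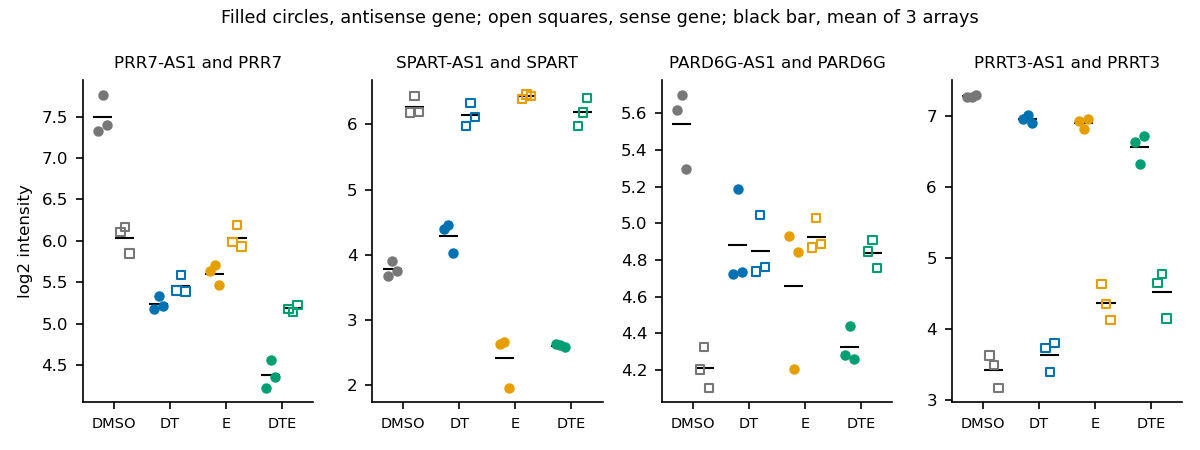
Log2 intensity (vertical axis) of 4 antisense genes (filled circles) and their sense partners (open squares) on each array by group (horizontal axis), with black bars for the means of 3 arrays. PARD6G and PARD6G-AS1 move in opposite directions, whereas SPART stays between 5.97 and 6.45 while SPART-AS1 falls.

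The reverse case, a partner that changed strongly while its antisense gene was not called as deposited, included regulators of melanoma cell state; these loci were picked after their values were seen. In DT the transcription factor ZEB1 fell by 1.47 while ZEB1-AS1, which starts 678 bases from it, changed by -0.23 (adjusted p = 0.17). LEF1, a factor of WNT signalling, fell by 1.56 while LEF1-AS1 changed by -0.18 (adjusted p = 0.32). ZEB2 rose by 1.08 and ZEB2-AS1 changed by 0.28 (adjusted p = 0.087), but it was called higher after quantile normalization (0.36) and median centring (0.48). AFAP1, an actin-binding protein, fell by 1.18 while AFAP1-AS1 changed by 0.01. ZEB2-AS1 and AFAP1-AS1 lay below the lower quartile in all 4 groups, and no level above background was shown for them, while ZEB1-AS1 lay above it at 4.03, 4.14 and 3.93 in DMSO and 3.83, 3.83 and 3.75 in DT.

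Antisense genes were also grouped by the symbol of the sense partner, mostly by its first letters, with calls as deposited. Such groups leave out genes of like function with other symbols and can take in unrelated ones, so they are not counts by function. Of all 475, 10.5% were called in DT, 7.37% in E and 14.7% in DTE. For transcription factors of development, letters such as FOX and PAX took in 19 antisense genes. Their median changes were -0.07 in DT, 0.03 in E and 0.05 in DTE. Of the 19, 2 rose and 2 fell in DT, 1 rose in E, and 2 rose and 1 fell in DTE. On all 3 scales these were 2 and 0 in DT, 0 and 0 in E, and 2 and 1 in DTE. TFAP2A-AS1 was among the rises in DT, and FOXD2-AS1 fell by 0.95 in DTE. The rises in DTE were FOXN3-AS1 and PAXBP1-AS1, and PAXBP1-AS1 is in this group by the letters PAX alone, not by function. Among 15 named for zinc finger genes, 1 fell in DT, 1 rose in E, and 1 rose and 1 fell in DTE, of which only the calls in DTE held on all 3 scales. Among 11 named for solute carriers, 2 fell in DT, 1 rose and 1 fell in E, and 1 fell in DTE; the fall in E and DTE was that of SLCO4A1-AS1 and held on all 3 scales, while the others did not. For cytoskeleton and adhesion the letters were ITG, COL, LAM, CDH, ADAM, MYO, KIF and ARHG, which took in 10 antisense genes. Of these 1 fell in DT, 3 rose in E and 1 rose in DTE. ARHGAP5-AS1 and ARHGEF26-AS1 were among the rises in E, of which 2 held on all 3 scales. NHSL1-AS1, named for a regulator of actin, fell in DT but lies outside this group by its symbol. The rise of ARHGEF26-AS1 in DTE (0.44) was lost without DMSO replicate 1 (0.43), DMSO replicate 3 (0.43), DTE replicate 1 (0.38) or DTE replicate 3 (0.33). No antisense gene was named for a gene on the ERK output list (0 members), and 2 were named for DNA replication or repair genes, with 0 calls.

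Of the antisense RNAs most studied in cancer, 21 on the list used were measured. In DT 1 rose and 2 fell, in E 1 rose and 2 fell, and in DTE 0 rose and 3 fell. On all 3 scales these were 1 and 0 in DT, 0 and 2 in E, and 0 and 2 in DTE, and of all 475 antisense genes 4.84%, 4.21% and 12.8% were called in either direction on all 3 scales. TMPO-AS1 and SLCO4A1-AS1 accounted for both falls in E, and FGD5-AS1 was the third fall in DTE (-0.38), a call lost after quantile normalization (-0.15) and without DMSO replicate 2 (-0.32), DTE replicate 1 (-0.34) or DTE replicate 2 (-0.35). CDKN2B-AS1, also known as ANRIL, read 1.93, 1.95 and 1.84 in DMSO and lay below the lower quartile in all 4 groups, as did 6 others of the 21.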

How the data were processed

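The authors deposited 1 linear intensity per probe set and array. RMA and the Transcriptome Analysis Console are named per the submitters' processing notes, without versions. The deposited intensities of the genes analysed differed in array median (group means of 4.48 to 4.88, log2). These medians do not cover the probe sets without a gene symbol, so whether quantile normalization was applied last is not settled. The genome build and whether probe sets read 1 strand are not given in the sources used here.

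Of 29396 probe sets, 14748 had 1 gene symbol and 14648 none. The brightest probe set per gene left 14580 genes, with no filter on dim genes. Intensities were taken to log2 without a pseudocount. Group means over all 12 arrays were fitted with limma 3.58.1 (R 4.3.3) by lmFit, contrasts and eBayes, which left 8 residual degrees of freedom, and p-values were adjusted over all genes by Benjamini-Hochberg. Standard errors are moderated. The fit was tested on simulated data. With 3 arrays per group the number of arrays limits the precision. Replicate arrays were checked for identity, and no pair held equal values.

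Antisense genes and lists were chosen with earlier results of these data known. Genes named are, for each of 6 comparisons, up to 8 called higher and 8 lower with the largest change among those whose arrays do not overlap; PRR7-AS1 and SPART-AS1; the 5 brightest; a list of much-studied antisense RNAs; pairs called in opposite directions; and the sense partners of these genes. Others called in both settings of a drug were named after their values were seen. Alternatives were quantile normalization, median centring, leaving out dim genes, averaging probe sets, platform symbols, trend and robust moderation, a replicate block, and leaving out each array, the last also on all 3 scales (chosen after seeing the data). A planned reference of olfactory receptor genes was not used, since it held 1 gene. The level used for dim genes is the lower quartile of all genes in a group. The replicate numbers were not taken as pairing the samples.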

Additional observations from a re-analysis of the deposited data

Results flagged for a closer look

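The effect of entinostat on 3 antisense genes differed between cells with and without dabrafenib and trametinib, by the interaction term of the limma fit over all genes. TMEM51-AS1 had a difference of -0.92 (log2): it rose by 1.01 with entinostat alone and changed by 0.09 when entinostat was added to the other agents. PRR7-AS1 had a difference of 1.03, with falls of 1.89 and 0.86. TNFRSF14-AS1 had a difference of -0.71, with changes of -0.06 and -0.77. The first 2 kept their call in every setting in which the scale, the moderation or the filter was changed, and as deposited with any 1 array left out. On all 3 scales the count of negative departures was 0 in 4 of the 12 analyses with 1 array left out, so that TMEM51-AS1 was not called there on every scale. The sense partner TMEM51 had a difference of -0.77, which was called only after quantile normalization (-0.80).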

How the results depend on the processing

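Scaling moved counts of called antisense genes by over 1.5 times in 4 comparisons and for the positive departure, but not in DTE against DMSO (24 to 27 higher and 42 to 45 lower). In DT against DMSO 10 were higher and 40 lower as deposited, 17 and 18 after quantile normalization, and 28 and 14 after median centring. In E against DMSO 22 and 13 became 8 and 38, and 8 and 61. In DTE against DT 23 and 17 became 17 and 45, and 12 and 52. In DTE against E 4 and 45 became 14 and 12, and 29 and 9, and without dim genes 7 were higher. The departure from additivity was called positive for 2 antisense genes in place of 1 under quantile normalization, median centring, the filter on dim genes and trend and robust moderation, and negative for 1 in place of 2 under that moderation. Beside these, the replicate block and leaving out 1 array, planned settings left the counts within 1.5 times. In DT against DMSO 3 changes near 0 that were not called as deposited took the other sign and were called after quantile normalization: ASB16-AS1 (0.36), SH3PXD2A (0.34) and UGDH (0.27). The cause was not tested. Leaving out 1 array gave, as deposited, 5 to 14 higher and 21 to 43 lower in DT, 9 to 27 and 7 to 14 in E, 20 to 25 and 28 to 50 in DTE, 14 to 30 and 9 to 19 in DTE against DT, 3 to 6 and 22 to 48 in DTE against E, and 1 to 3 and 1 to 3 for the departure. On all 3 scales it gave 5 to 14 and 10 to 15 in DT, 4 to 8 and 7 to 14 in E, 18 to 23 and 27 to 39 in DTE, 7 to 14 and 9 to 19 in DTE against DT, 3 to 6 and 3 to 11 in DTE against E, and 1 to 2 and 0 to 3 for the departure; this was chosen after seeing the data. The negative departures on all 3 scales numbered 0 without DMSO replicate 1, DT replicate 1, DT replicate 3 or DTE replicate 2. Averaging probe sets changed no named call, and platform symbols gave the same 475 members.

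Of 18 correlations between the deviations of arrays with the same replicate number, 16 were positive (-0.10 to 0.17, median 0.05) and 3 were over 0.1; 36 between different numbers had a median of -0.03 (-0.17 to 0.17). On average 9 of 12 arrays correlated best with their own number, and replicate 2 had the highest array median in each group, a hint from the data and not the design. Since not every correlation was over 0.1, the numbers were not taken as pairing the arrays. With the replicate number as a block, 11 antisense genes were higher and 50 lower in DT, 25 and 15 in E, 25 and 50 in DTE, 25 and 22 in DTE against DT, 5 and 55 in DTE against E, and 2 and 2 for the departure, where the count of positive values moved from 1 to 2. Shares of all genes with this block are not given. The signal of dim genes limits what can be seen: 199 antisense genes were never above the lower quartile.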

Other observations

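The brightest antisense genes changed little or not at all in some treatments. PITPNA-AS1, with mean log2 levels of 7.82 in DMSO, 7.67 with DT, 8.02 with E, and 7.64 with DTE, was not called against DMSO in any treatment. ASB16-AS1 had means of 7.08, 7.07, 6.86 and 6.47, and its fall in DTE (-0.61, adjusted p = 0.00095 in the limma fit) was called on all 3 scales.

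Antisense genes named for the same partner did not share their calls. DLGAP1-AS1 fell by 1.33 in DT, while DLGAP1-AS3 changed by 0.11 and DLGAP1-AS5 by 0.22, neither called. FOXN3-AS1 rose by 0.74 in DTE and FOXN3-AS2 changed by 0.04. Whether these changes differ was not tested.

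HIF1A-AS2, named for the oxygen-sensing transcription factor, read 5.65, 5.91 and 5.49 in DMSO and 5.84, 8.23 and 6.48 in E. Its call in E (1.17) rested on E replicate 2: without it the change was 0.48 and not called. The call was also lost without DMSO replicate 1 (1.15) or DMSO replicate 3 (1.07).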
